A study of Drosophila melanogaster with 12 samples.

Results

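Libraries labelled svb RNAi were compared with libraries of the repressor form of Shavenbaby, which the labels call SvbREP, in enterocytes of the adult Drosophila gut. The columns were taken by their labels, 3 for each genotype, so that 6 of the 12 libraries of the study enter the difference. It was described over all 8296 genes with enough counts to test, out of 8802 in the deposited table. RNA came from GFP-sorted cells of the posterior midgut (R3 to R5) of virgin females, which the labels name early enterocytes. Every genotype carried MyoIA-Gal4, an enterocyte driver, with UAS-GFP and tubGal80TS, a temperature-sensitive repressor of Gal4. The svb RNAi cross added UAS-SvbRNAi, and the SvbREP cross added UAS-Svb3Kmut::GFP. The remaining crosses carried UAS-SvbACT::GFP, an activator form, or no further transgene after a cross to Canton-S (control), and here they give only the shared spread and levels set side by side. Flies were moved to 29 °C at 3 days of age, which releases Gal4, and guts were taken 6 days later, at 9 days of age. Both arms carried an active transgene from a different stock, so transgene and stock cannot be told apart. Neither arm is a baseline, and a transcript lower in the RNAi-labelled libraries is equally one that was higher in SvbREP.

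The gene ovo encodes Shavenbaby (Svb), a zinc finger transcription factor best known for shaping the epidermal cells of the embryo. The full-length protein represses its targets until small Pri peptides and the ubiquitin ligase Ubr3 direct the proteasome to trim it into an activator, and the 3Kmut protein lacks lysines needed for that trimming. Enterocytes make up most of the midgut lining, secrete digestive enzymes and absorb nutrients, while the rarer enteroendocrine cells between them release peptide hormones.

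Library totals were 4850077, 8222486 and 3209182 counts in svb RNAi replicates 1, 2 and 3, and 7652286, 5400403 and 3355847 in SvbREP replicates 1, 2 and 3. Levels are given in CPM, counts scaled to a common total after TMM scaling, where 3 counts, the floor used here, equal 0.341 to 0.935 CPM. Spearman correlations across genes were 0.944 to 0.972 within genotypes and 0.928 to 0.965 between them. Defining enterocyte markers were present in all 6 libraries (nub, Myo31DF, Myo61F, alphaTry and betaTry summed to 876 to 1708 CPM in the RNAi-labelled libraries and 789 to 1271 CPM in SvbREP). Progenitor markers were abundant too, at 2436 to 3172 CPM in the RNAi-labelled libraries and 2746 to 3436 CPM in SvbREP. Summed visceral muscle markers ran from 7.41 to 281 CPM in the RNAi-labelled libraries and from 17.5 to 160 CPM in SvbREP. Fat body markers stayed under 9 CPM, and the germline marker nos was under 1 CPM in every library of both arms. Of 3 hemocyte markers 1 was in the table, Hml. It had 7.69 CPM in svb RNAi replicate 3, 13.6 CPM in SvbREP replicate 1 and at most 0.227 CPM in the other libraries of both arms. The numbers in the column labels were set as pairs beforehand. Deviations from the group means correlated at 0.361, 0.137 and 0.280 in same-numbered libraries. Other combinations reached up to 0.115, so pair 2 hardly stood out.

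Of the 8296 genes, 470 (5.67%) were called at an edgeR quasi-likelihood adjusted p under 0.05. In the RNAi-labelled libraries 131 genes (1.58%) were higher and 339 (4.09%) were lower than in SvbREP. The median absolute log2 fold change was 1.66 among the higher calls and 0.88 among the lower ones. A change of more than 4-fold was seen in 50 higher and 49 lower genes. The libraries of the 2 arms did not overlap in 104 of the higher and 320 of the lower genes, against 1729 of 8296 genes (20.8%) overall. Without the replicate block 215 genes (2.59%) were called, 40 higher and 175 lower, all of them among the 470. Scaling by library totals moved the median gene by 0.14 and gave 249 higher and 221 lower genes, while RLE size factors gave 133 higher and 328 lower and DESeq2 gave 222 higher and 465 lower. Leaving out svb RNAi replicate 1 gave 192 calls, svb RNAi replicate 3 gave 196, SvbREP replicate 3 gave 213 and SvbREP replicate 2 gave 288, while the count was 573 without svb RNAi replicate 2 and 453 without SvbREP replicate 1. Whichever single library was left out, 137 of the 470 genes were called, and 36 of the 108 genes picked by the naming rule. A gene said to hold was called in all 6 omissions; ovo held, as did the 12 largest falls except nAChRalpha6 and the 12 largest rises except LManIII and LManIV.

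**Figure D1:**
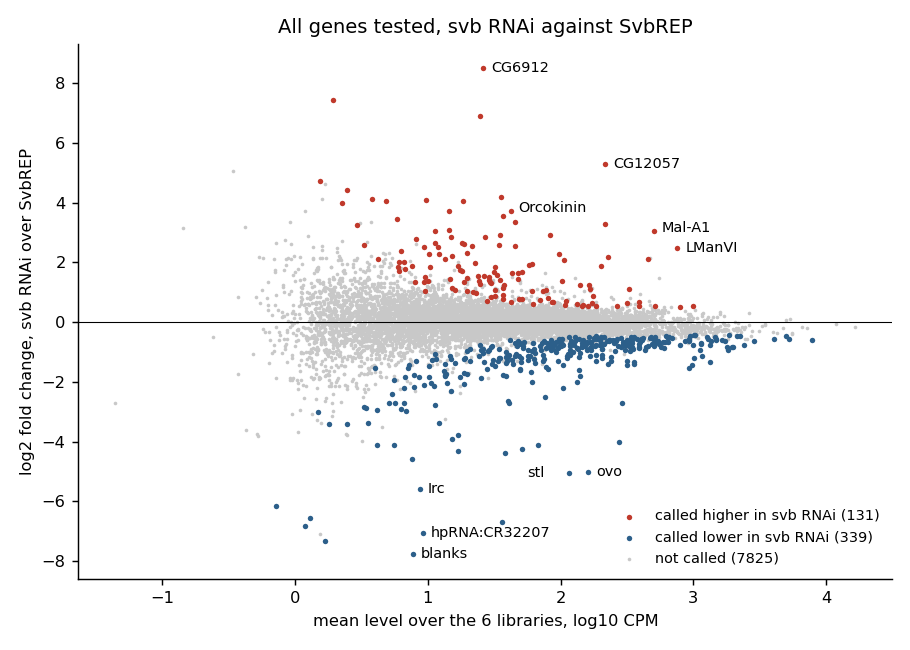
Each point is 1 gene, with its mean level over the 6 libraries (log10 CPM) across and the log2 fold change of svb RNAi over SvbREP up the page; red points are the 131 genes called higher in svb RNAi, blue points the 339 called lower. Blue points gather close under 0 at high levels, while the largest changes in both directions lie at low and middle levels. A tested gene without counts in these 6 libraries is not drawn.

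The targeted gene came first. ovo (FBgn0003028; X:5048273-5070929, plus strand, dm6) had 14.8, 7.38 and 5.98 CPM in the RNAi-labelled libraries, against 536, 226 and 178 CPM in SvbREP. The arms lay far apart in each pair, and the log2 fold change was -5.03 (SE 0.29, adjusted p 2.1e-06). SvbREP flies express an ovo transgene, so this difference does not measure a knockdown. ovo averaged 9.39 ± 4.75 CPM in the RNAi-labelled libraries and 5.09 ± 5.88 CPM in control (SD, n = 3 each). A lower ovo level than in control was therefore not seen, but the control SD exceeded its mean. These levels cannot say whether ovo was knocked down, and the libraries are called RNAi-labelled throughout for that reason. In SvbACT ovo averaged 175 ± 66.3 CPM. Of the 7400 exon bases of ovo, 25 are shared with lncRNA:CR44833.

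Genes nearly silent in the RNAi-labelled libraries and clearly expressed in SvbREP led the falls. blanks, which encodes a testis-enriched double-stranded RNA binding protein, had 0, 0.114 and 0 CPM in the RNAi-labelled libraries, against 13.6, 20.5 and 12.5 CPM in SvbREP. Set against the floor of 3 counts over the group's libraries, it was at least 26.4-fold lower (adjusted p 2.7e-05). It averaged 18.8 ± 7.5 CPM in SvbACT and 0.237 ± 0.263 CPM in control (SD, n = 3 each). hpRNA:CR32207, a long hairpin RNA, showed another order: 0.38, 0 and 0 CPM in the RNAi-labelled libraries, against 14.9, 20.3 and 19.6 CPM in SvbREP, with averages of 4.8 ± 0.483 CPM in SvbACT and 14.1 ± 3.54 CPM in control. It was at least 31.1-fold lower than in SvbREP (adjusted p 3.62e-05). A neighbouring hairpin, hpRNA:CR33940 on 3L, fell less (log2 fold change -1.75, adjusted p 0.00288), and 41.2% of its exon bases overlap CG32212.

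Irc, a secreted immune-regulated catalase that removes peroxide in the gut lumen, had 0.76, 0.227 and 0 CPM in the RNAi-labelled libraries, against 16.5, 20.1 and 14.6 CPM in SvbREP. Its log2 fold change was -5.58 (SE 0.58, adjusted p 0.000102). stall (stl), a secreted ADAMTS-family metalloprotease, was far more abundant: 8.17, 4.31 and 9.11 CPM in the RNAi-labelled libraries, against 150, 227 and 301 CPM in SvbREP. Its log2 fold change was -5.05 (SE 0.36, adjusted p 7.12e-06). In control, stl averaged 292 ± 78.2 CPM, whereas Irc averaged 3.6 ± 1.24 CPM (SD, n = 3 each). IRSp53 encodes an I-BAR protein that bends membrane over actin. It had 1.9, 2.16 and 0.285 CPM in the RNAi-labelled libraries, against 24.5, 41.7 and 30.8 CPM in SvbREP. The log2 fold change of IRSp53 was -4.30 (SE 0.46, adjusted p 0.000144). SvbACT averaged 21 ± 6.59 CPM for this gene and control 3.07 ± 0.717 CPM.

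CG42524 was highest in SvbREP among the 4 genotype means. It had 8.55, 5.34 and 6.55 CPM in the RNAi-labelled libraries, against 221, 60.4 and 106 CPM in SvbREP, with 8.99 ± 3.24 CPM in SvbACT and 36.3 ± 26.8 CPM in control on average. Its fall came to -4.12 on the log2 scale (SE 0.31, adjusted p 1.03e-05). The remaining genes with the 12 largest falls were CG17145 (log2 fold change -6.69), CG1139 (-4.57), CG15186 (-4.39), CG15629 (-4.26, with 13.2% of its exon bases shared with CG3225) and nAChRalpha6, a nicotinic acetylcholine receptor subunit (-4.12). CG17145 had 1.33, 0 and 1.14 CPM in the RNAi-labelled libraries, against 39.9, 76.2 and 97.8 CPM in SvbREP. nAChRalpha6 lost its call without svb RNAi replicate 1 (adjusted p 0.0501; 3.77e-06 to 0.0501 over all alternatives). The other 11 held. By smallest p the falls also included lncRNA:CR40469, with 44.1, 42.3 and 13.4 CPM in the RNAi-labelled libraries, against 517, 629 and 417 CPM in SvbREP (log2 fold change -4.03, SE 0.32), and CG14626 (log2 fold change -3.92).

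The largest rise was at a single locus on 3R. CG6912 had 50.7, 62.1 and 44.1 CPM in the RNAi-labelled libraries, against 0, 0.369 and 0 CPM in SvbREP, at least 83.1-fold higher (adjusted p 2.58e-06). asRNA:CR45600, whose end overlaps CG6912, had 40.5, 41.4 and 66.7 CPM in the RNAi-labelled libraries, against 0.8, 0 and 0 CPM in SvbREP. CG3984, which lies wholly within the exons of asRNA:CR45600, had 9.12, 5.45 and 7.41 CPM in the RNAi-labelled libraries, against 0.667, 0.369 and 0 CPM in SvbREP. The same locus was off in SvbACT, where CG6912 had no counts, and on in control, where it averaged 75.7 ± 7.73 CPM. The 3 genes span 15135138 to 15140121 on 3R and share exon positions, so their counts are not independent of one another.

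Another group of rises was steady over the libraries. pyd3, the beta-ureidopropionase that ends pyrimidine breakdown, had 38.2, 38.4 and 33 CPM in the RNAi-labelled libraries, against 4.67, 6.28 and 8.1 CPM in SvbREP (log2 fold change 2.55, SE 0.35, adjusted p 0.00125). NKCC, a sodium, potassium and chloride cotransporter, had 27.6, 22.3 and 29.6 CPM in the RNAi-labelled libraries, against 0.667, 1.85 and 4.67 CPM in SvbREP (log2 fold change 3.72, SE 0.56, adjusted p 0.00227). CG17321 stood at 20, 16.9 and 18.2 CPM in the RNAi-labelled libraries, against 1.6, 0.185 and 1.25 CPM in SvbREP. Agpat2, an acyltransferase of phospholipid and triglyceride synthesis, had 42.2, 41.5 and 25.6 CPM in the RNAi-labelled libraries, against 12.7, 6.64 and 8.1 CPM in SvbREP. These 4 genes kept their call under every alternative tried.

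In a further group svb RNAi replicate 1 was far above the rest. CG12057 had 1116, 61.2 and 99.4 CPM in the RNAi-labelled libraries, against 11.6, 4.61 and 4.99 CPM in SvbREP. The lowest RNAi-labelled library was above the highest SvbREP library, and the log2 fold change was 5.30 (SE 0.77, adjusted p 0.00189). Ag5r2, an antigen-5-related secreted protein, had 165, 7.72 and 33.6 CPM in the RNAi-labelled libraries, against 5.2, 0.923 and 2.8 CPM in SvbREP. CG6484, CG1208 and Cyp9b2, a cytochrome P450, shared the pattern, with 77.5, 61.9 and 154 CPM in svb RNAi replicate 1. In the other RNAi-labelled libraries these 3 genes had between 9.2 and 60.7 CPM, against 0.312 to 18.7 CPM in all SvbREP libraries. Genes with the largest changes were picked only where the arms did not overlap, so that separation is not a result of its own. All 5 genes held, also with svb RNAi replicate 1 left out.

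**Figure D2:**
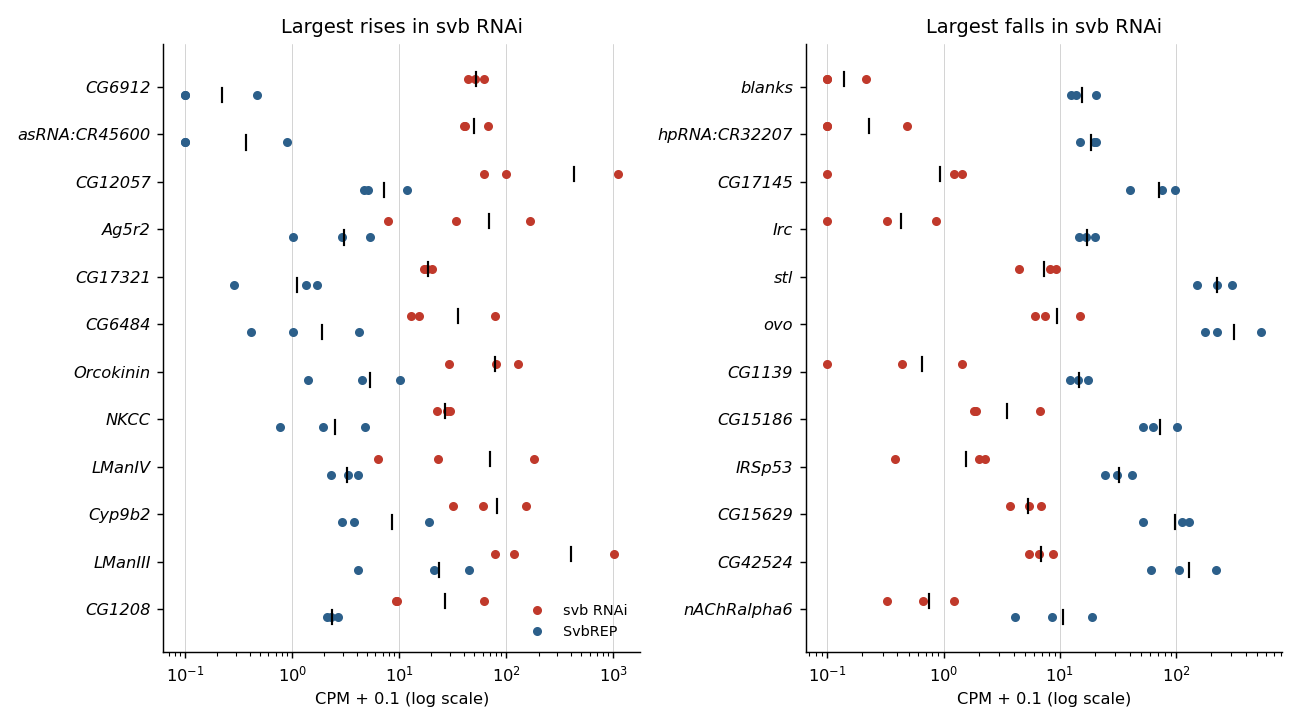
Points are the level in each of 3 libraries per arm (CPM + 0.1, log scale) for the 12 genes with the largest rises (left) and falls (right) in svb RNAi over SvbREP; red is svb RNAi, drawn above blue SvbREP, and black ticks are means. Genes were picked only where the arms do not overlap, and wide red rows such as CG12057 show 1 high library of 1116 CPM.

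Carbohydrate digestion held the largest share of higher calls among the function lists. Of 18 maltases, lysosomal-type alpha-mannosidases and amylases tested, 10 rose, none fell, and the median log2 fold change was 1.40, beside 0.01 over all genes. The share called was 55.6%, against 5.67% of all genes. With a minimum mean of 10 CPM, 435 of 5960 genes were called. Lists and members were chosen with earlier results of these data known. The shares given for this and the later lists are therefore descriptions and not tests. Mal-A1, a maltase that splits disaccharides, had 2201, 265 and 317 CPM in the RNAi-labelled libraries, against 133, 99.1 and 24.3 CPM in SvbREP (log2 fold change 3.06, SE 0.45, adjusted p 0.00198). LManVI, an alpha-mannosidase, had 3606, 196 and 375 CPM in the RNAi-labelled libraries, against 150, 153 and 74.2 CPM in SvbREP (log2 fold change 2.48, SE 0.65, adjusted p 0.0413). LManIII (3.28) and LManIV (3.56) rose with it on the log2 scale, and these 3 neighbouring mannosidase genes lie between 8765273 and 8781252 on 2L. Mal-A4 (2.27) and Mal-A7 (2.09) rose in the maltase cluster of 2R.

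The rise of these enzymes was much larger in pair 1 than in pair 2. In 6 of the 18 genes the RNAi-labelled libraries were all above SvbREP, against 811 of 8296 genes overall. For LManVI the log2 differences within pairs 1, 2 and 3 were 4.58, 0.35 and 2.32, and for Mal-A1 they were 4.04, 1.41 and 3.65. Without svb RNAi replicate 1, or without svb RNAi replicate 3, 1 of the 18 genes was called higher, Mal-A1 remaining in each case. 2 calls remained without SvbREP replicate 1 and without SvbREP replicate 3, 7 without SvbREP replicate 2, and 12 higher with 1 lower without svb RNAi replicate 2. Without the replicate block 2 of the 10 were called, with adjusted p between 0.0355 and 0.361 (3.04e-06 to 0.398 over all alternatives).

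Digestive proteases moved in both directions. Of 26 Jonah and trypsin genes, 4 rose and 2 fell (23.1% called, against 5.67% of all genes), with a median log2 fold change of 0.67. alphaTry, a trypsin, had 721, 118 and 136 CPM in the RNAi-labelled libraries, against 164, 42.5 and 34.3 CPM in SvbREP (log2 fold change 1.88, SE 0.36, adjusted p 0.00783). The arms overlapped, since SvbREP replicate 1 was above svb RNAi replicates 2 and 3, and number 1 was the higher library in both arms. Jon99Fi (log2 fold change 1.94) behaved alike, with 254, 30.7 and 19.7 CPM in the RNAi-labelled libraries, against 37.3, 9.23 and 12.2 CPM in SvbREP. Jon65Ai (-1.39) and Jon25Bi (-2.96) were the 2 that fell. None of the 6 was called without the replicate block (adjusted p 0.163 to 0.572; 2.76e-07 to 0.601 over all alternatives). With library totals 6 proteases were higher and none lower. Without svb RNAi replicate 1, 1 protease was higher and none lower, without SvbREP replicate 3 there was 1 each way, and without svb RNAi replicate 2 there were 6 higher and none lower. Jonah genes include near-identical copies, so reads may be split among them. In the lipid list, 2 of 11 genes rose (18.2% called), the lipase gene CG8093 (log2 fold change 1.68) and the sterol-binding Npc2e (1.09). Of the exon bases of Npc2e, 92.4% overlap an antisense RNA. Neither gene was called without the replicate block (adjusted p 0.273 and 0.471, 0.00014 to 0.518 over all alternatives) or without svb RNAi replicate 1.

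Enteroendocrine hormone genes gave 2 rises that held. Of 10 peptide hormone genes tested, 2 rose and none fell (20% called, against 5.67% of all genes), and the median log2 fold change was 1.04. CCHa1, a peptide hormone of the midgut, had 27.6, 62.6 and 52.1 CPM in the RNAi-labelled libraries, against 4.53, 7.94 and 7.17 CPM in SvbREP (log2 fold change 2.85, SE 0.39, adjusted p 0.00139). Orcokinin, which encodes another neuropeptide, had 79.8, 128 and 29.1 CPM in the RNAi-labelled libraries, against 10.1, 1.29 and 4.36 CPM in SvbREP (log2 fold change 3.72, SE 0.63, adjusted p 0.00439). Both were also called without the replicate block. Other members were not called: the log2 fold change was 1.48 for AstC (adjusted p 0.118), 1.34 for AstA (adjusted p 0.127) and 1.07 for CCHa2 (adjusted p 0.173), and close to 0 or below it for ITP (0.15), Tk (-0.27) and Dh31 (-0.30).

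Among genes for making and releasing such hormones, 3 of 20 prohormone and vesicle genes rose (15% called, against 5.67% of all genes), with a list median of 0.82. They were amon, the prohormone convertase (log2 fold change 1.74), brp, a scaffold of release sites (1.55), and Syt1, the calcium sensor of vesicle fusion (1.51). Of 7 enteroendocrine transcription factors, prospero (pros), which defines the lineage, rose (14.3% called). It had 92.3, 111 and 96.6 CPM in the RNAi-labelled libraries, against 53.7, 48 and 41.4 CPM in SvbREP (log2 fold change 1.05, SE 0.22, adjusted p 0.0131). These 4 calls were lost without the replicate block, with adjusted p of 0.0513 to 0.0628 (0.000363 to 0.161 over all alternatives). None of the 3 release genes was called without svb RNAi replicate 3 or SvbREP replicate 2, and pros was lost in these omissions and without svb RNAi replicate 1 or SvbREP replicate 3. The 8 enteroendocrine markers, which include CCHa1 and pros, summed to 243 to 683 CPM in the RNAi-labelled libraries, 146 to 219.5 CPM in SvbREP and 628 to 2136 CPM in control, with none at 0 in all 6 libraries. In sorted pools, more cells of a type and more RNA per cell cannot be told apart, and the part of such cells in these rises was not tested.

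**Figure D3:**
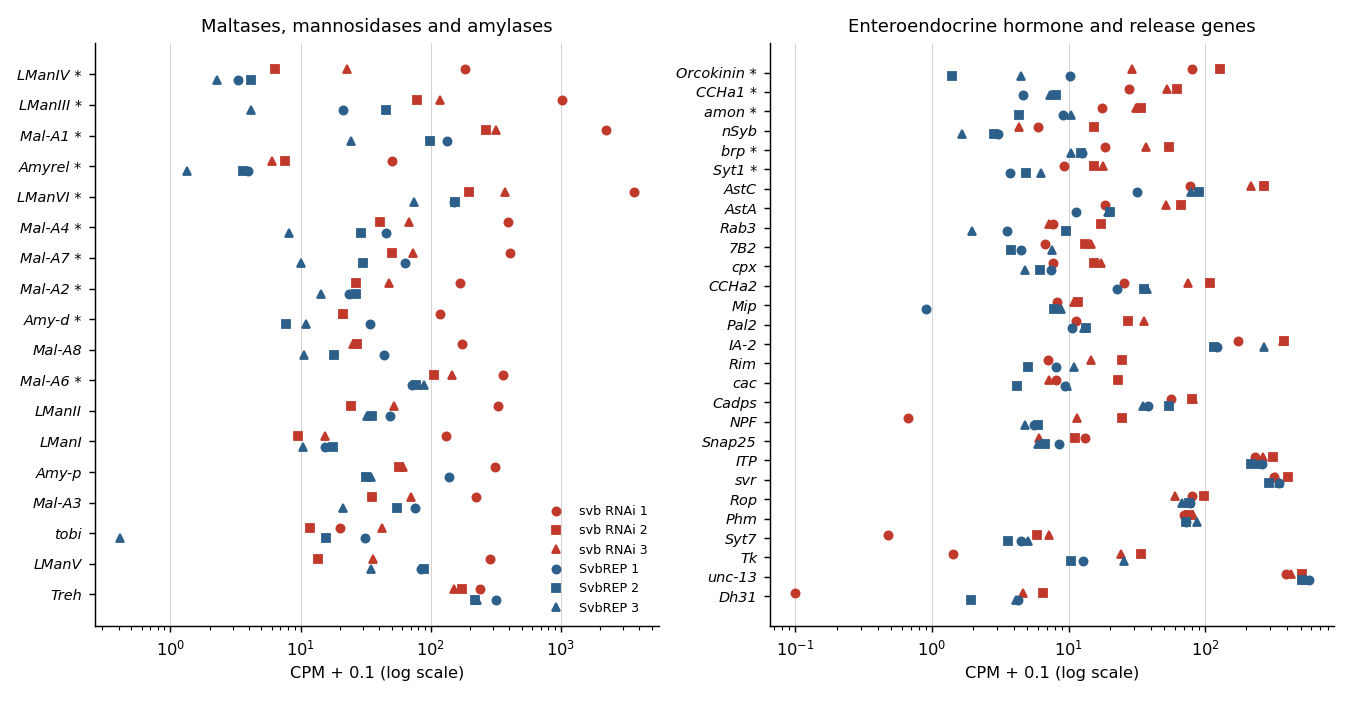
Levels per library (CPM + 0.1, log scale) of the carbohydrate enzymes (left) and the enteroendocrine hormone and release genes (right) that reached 5 CPM in any library; red is svb RNAi, blue SvbREP, symbols give the replicate number and asterisks mark called genes. The red circle of svb RNAi replicate 1 is far to the right in the enzymes (3606 CPM for LManVI) and often leftmost among red symbols in the hormones (27.6 CPM for CCHa1).

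Septate junction and polarity genes gave mostly lower calls. Septate junctions seal the spaces between epithelial cells, and polarity proteins set the apical side. The list is not limited to the smooth septate junction of the gut. Of 29 tested, 7 fell and 1 rose (27.6% called, against 5.67% of all genes), and the median log2 fold change was -0.23 (-0.08 with library totals). Neurexin IV (Nrx-IV) had 87.8, 77.7 and 119 CPM in the RNAi-labelled libraries, against 151, 158 and 211 CPM in SvbREP (log2 fold change -0.88, SE 0.15, adjusted p 0.00482). Its partner Contactin (Cont) had 69.9, 67.5 and 66.4 CPM in the RNAi-labelled libraries, against 116, 117 and 134 CPM in SvbREP (log2 fold change -0.85, SE 0.17). nrv2, a sodium pump subunit of the junction, had a log2 fold change of -0.96 and crb, the apical determinant Crumbs, of -0.92, while sinu, Tsf2 and baz completed the 7. For each of the 7 the libraries of the arms did not overlap, as in 320 of all 339 lower calls, and Nrx-IV held.

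The gene that rose was Ssk, or Snakeskin, a component of the smooth septate junction of the gut. Ssk had 55.9, 57.2 and 38.2 CPM in the RNAi-labelled libraries, against 34.4, 26 and 9.35 CPM in SvbREP (log2 fold change 1.16, SE 0.30, adjusted p 0.0403). Its partners mesh (log2 fold change 0.81, adjusted p 0.401) and Tsp2A (0.85, adjusted p 0.31) were not called, with SvbREP replicate 1 above the other SvbREP libraries for each. Without the replicate block 4 of the 7 lower genes stayed called and Ssk did not (adjusted p 0.155; 0.004 to 0.265 over all alternatives). A single lower call remained without svb RNAi replicate 1 and without SvbREP replicate 3, 2 without svb RNAi replicate 3, 4 without SvbREP replicate 2 and 5 without svb RNAi replicate 2, and in the other omission 7 were lower and 4 higher.

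On the apical side, 3 of 11 brush border and actin genes fell and none rose (27.3% called, against 5.67% of all genes). They were IRSp53, the fimbrin Fim (log2 fold change -0.55) and the myosin Myo31DF (-0.58). Myo31DF, the gene after which the MyoIA driver is named, had 411, 377 and 406 CPM in the RNAi-labelled libraries, against 576, 549 and 660 CPM in SvbREP. The call was lost without svb RNAi replicate 3 (adjusted p 0.0626; 0.000139 to 0.0925 over all alternatives), and Fim was not called without the replicate block (adjusted p 0.124; 0.013 to 0.292 over all alternatives). Among 8 enterocyte identity genes Myo31DF was the 1 called (12.5%), and 9.09% of the progenitor list was called. Of 11 progenitor genes, zfh2 fell (987 ± 18.9 CPM in the RNAi-labelled libraries and 1666 ± 88.8 CPM in SvbREP, SD, n = 3 each; log2 fold change -0.75), and esg, the progenitor marker, was not called (-0.48, adjusted p 0.125). The call of zfh2 was lost without the replicate block (adjusted p 0.0765; 0.0019 to 0.157 over all alternatives), and 18.7% of its exon bases overlap Thd1.

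The most abundant falls numbered 6. LanA, the laminin alpha chain, averaged 1766 ± 173 CPM in the RNAi-labelled libraries and 3042 ± 742 CPM in SvbREP (SD, n = 3 each; log2 fold change -0.77, SE 0.13, adjusted p 0.00421). shot, the spectraplakin that links actin and microtubules, had 4083, 3887 and 4450 CPM in the RNAi-labelled libraries, against 6107, 4801 and 6455 CPM in SvbREP (log2 fold change -0.48). The dioxygenase Tet (-0.57), the helicase eIF4A (-0.47), RNaseMRP:RNA (-0.60) and lncRNA:CR42862 (-0.62) were the other abundant falls. Of these 6, LanA was the 1 that kept its call without the replicate block, and it held. With library totals shot, Tet, eIF4A and RNaseMRP:RNA were not called (adjusted p 0.0543 to 0.0746; 0.00177 to 0.288 over all alternatives). The most abundant rises besides Mal-A1 and LManVI were CNBP, a nucleic acid binding protein (0.54), clu, which positions mitochondria (0.52), ERp60, a folding enzyme of the endoplasmic reticulum (0.55), and GlyP, glycogen phosphorylase (0.67), none of them called without the replicate block (adjusted p 0.0887 to 0.163; 0.000488 to 0.216 over all alternatives).

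Fat storage genes moved in both directions. Of 16 tested, 4 fell and 1 rose (31.25% called, against 5.67% of all genes), with a median of -0.03. brummer (bmm), the main fat lipase, had 90.4, 62.8 and 49.8 CPM in the RNAi-labelled libraries, against 183, 152 and 129 CPM in SvbREP (log2 fold change -1.21, SE 0.19, adjusted p 0.00314). SREBP, the master activator of lipid synthesis genes, had 208, 300 and 211 CPM in the RNAi-labelled libraries, against 434, 388 and 462 CPM in SvbREP (log2 fold change -0.85, adjusted p 0.0048). ATPCL, which makes cytosolic acetyl-CoA (-0.82), and the lipid droplet coat Lsd-2 (-0.45) also fell, while Men, the malic enzyme that makes NADPH, rose (0.76, adjusted p 0.0222). bmm and SREBP held; 2 lower calls remained without svb RNAi replicate 3, and Men was called without svb RNAi replicate 1 or SvbREP replicate 1 but in no other omission. Without the replicate block Lsd-2 alone of the 5 was lost (adjusted p 0.287; 0.00359 to 0.316 over all alternatives).

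Detoxification lists, like the whole table, gave more lower than higher calls. Of 53 cytochrome P450 genes, 6 fell and 1 rose (13.2% called, against 5.67% of all genes). Cyp6a17, known in flies for its part in temperature preference, had 1.52, 1.59 and 3.99 CPM in the RNAi-labelled libraries, against 20.8, 24.9 and 48.9 CPM in SvbREP (log2 fold change -3.78, SE 0.38, adjusted p 8.03e-05). Its neighbour Cyp6a9 fell by 1.32 on the log2 scale and Cyp9f2 by 1.26. Cyp9b2 was the riser, with 154, 31.4 and 60.7 CPM in the RNAi-labelled libraries, against 18.7, 3.69 and 2.8 CPM in SvbREP. Between 4 and 6 P450 genes were lower and 1 higher in each single-library omission. Of 26 glutathione transferases GstE1 fell (-0.91, 3.85% called), and of 20 UDP-glycosyltransferases Ugt303B1 (-0.87) and Ugt303B3 (-0.69) fell (10% called). GstE1 and Ugt303B3 were not called without the replicate block (adjusted p 0.163 and 0.0801; 0.00111 to 0.292 over all alternatives).

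Immune and stress genes gave lower calls alone, in shares of 15.4%, 13.3% and 14.8% for the gut immunity, JAK/STAT and stress, and heat shock lists, against 5.67% of all genes called. Of 13 gut immunity genes, Irc and PGRP-LC, a peptidoglycan receptor of the IMD pathway, fell. PGRP-LC had 131, 144 and 113 CPM in the RNAi-labelled libraries, against 216, 176 and 227 CPM in SvbREP (log2 fold change -0.67, adjusted p 0.0207). In the JAK/STAT and stress list, 2 of 15 fell: Mmp1, a matrix metalloprotease, with 123, 160 and 114 CPM in the RNAi-labelled libraries, against 522, 219 and 299 CPM in SvbREP (log2 fold change -1.31, SE 0.24), and egr, the fly TNF ligand (-0.77). Neither was called without svb RNAi replicate 1 or svb RNAi replicate 3, and PGRP-LC was lost in those omissions and without SvbREP replicate 3. Of 27 heat shock and chaperone genes 4 fell, DnaJ-1, stv, Hsp68 and Hsp26, by 0.47 to 0.68 on the log2 scale, none of them without the replicate block (adjusted p 0.189 to 0.509; 9.26e-05 to 0.584 over all alternatives).

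Signalling lists were called in shares of 0% to 15.0%, against 5.67% of all genes. E(spl)mgamma-HLH, a Notch target, fell (-1.19), 1 of 21 Notch genes. In the BMP and Wnt list, brk (-1.13), a repressor of BMP targets, and Mad (-0.76), the BMP effector, fell, and Dad (0.58), a BMP feedback inhibitor, rose, 3 of 20. Tgi was the single fall of the Hippo list (-0.48) and REPTOR that of the insulin and TOR list (-0.71). Of 14 apoptosis genes the initiator caspase Dronc (-0.70) and egr fell. Of 17 EGF receptor genes and 13 ecdysone response genes none was called. With egr left aside, none of these 7 calls was made without the replicate block (adjusted p 0.055 to 0.157; 0.000363 to 0.219 over all alternatives). Their medians, between -0.21 and -0.06, changed sign with library totals in the BMP, EGF receptor, apoptosis and ecdysone lists.

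Genes of the large protein machines had small log2 fold changes, mostly of 1 sign within a machine. All 63 respiratory chain and ATP synthase genes had positive log2 fold changes, with a median of 0.34 and 3 called higher (COX5A, Cyt-c-p and ATPsynE, 0.56 to 0.69). All 30 proteasome subunits were positive as well, with a median of 0.36 and none called. RNAi-labelled libraries were all above SvbREP in 15 of these 30, 6 of 63 respiratory and 9 of 69 mitochondrial ribosomal genes (811 of 8296 overall). The background for positive values was 4217 of 8296 genes. Of 69 mitochondrial ribosomal proteins, 61 were positive with a median of 0.36, and mRpL12 was called (0.80). Cytosolic ribosomal proteins ran the other way: 75 of 78 were negative, the median was -0.30 (-0.15 with library totals), and RpL22, RpL24, RpL24-like, RpL26 and RpL37a fell. In 8 of the 78 the RNAi-labelled libraries were all below SvbREP, against 918 of 8296 genes overall. Calls came to 4.76% of the respiratory, 1.45% of the mitochondrial ribosomal and 6.41% of the cytosolic ribosomal genes, against 5.67% of all genes. None of these 9 calls was made without the replicate block (adjusted p 0.102 to 0.354; 0.00038 to 0.398 over all alternatives). Of the ribosomal falls none remained without svb RNAi replicate 1 or SvbREP replicate 2, and of the respiratory calls none remained without svb RNAi replicate 1, svb RNAi replicate 3 or SvbREP replicate 3.

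Replication (26 genes, median 0.38) and mitosis genes (26 genes, median 0.38) gave no call, with 21 and 24 positive values. Of 21 endoplasmic reticulum stress genes ERp60 and Cnx99A rose (20 positive, median 0.27), and of 13 glycolysis genes Gapdh2 and Pglym78 rose (median 0.34), none of the 4 called without the replicate block (adjusted p 0.0918 to 0.183; 0.000877 to 0.235 over all alternatives). Of 28 V-ATPase and lysosome genes, Vha68-1 rose (1.33) and Npc2a, Vha100-1 and CG12163 fell, none of them called without the replicate block (adjusted p 0.064 to 0.151; 0.00474 to 0.306 over all alternatives). Of 24 nucleolar genes, Non1 fell (-0.63, 4.17% called), and of 23 metal handling genes Tsf2 fell (-0.92, 4.35% called). Shares called were 9.52% for endoplasmic reticulum stress, 15.4% for glycolysis and 14.3% for V-ATPase and lysosome genes, against 5.67% of all genes.

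**Figure D4:**
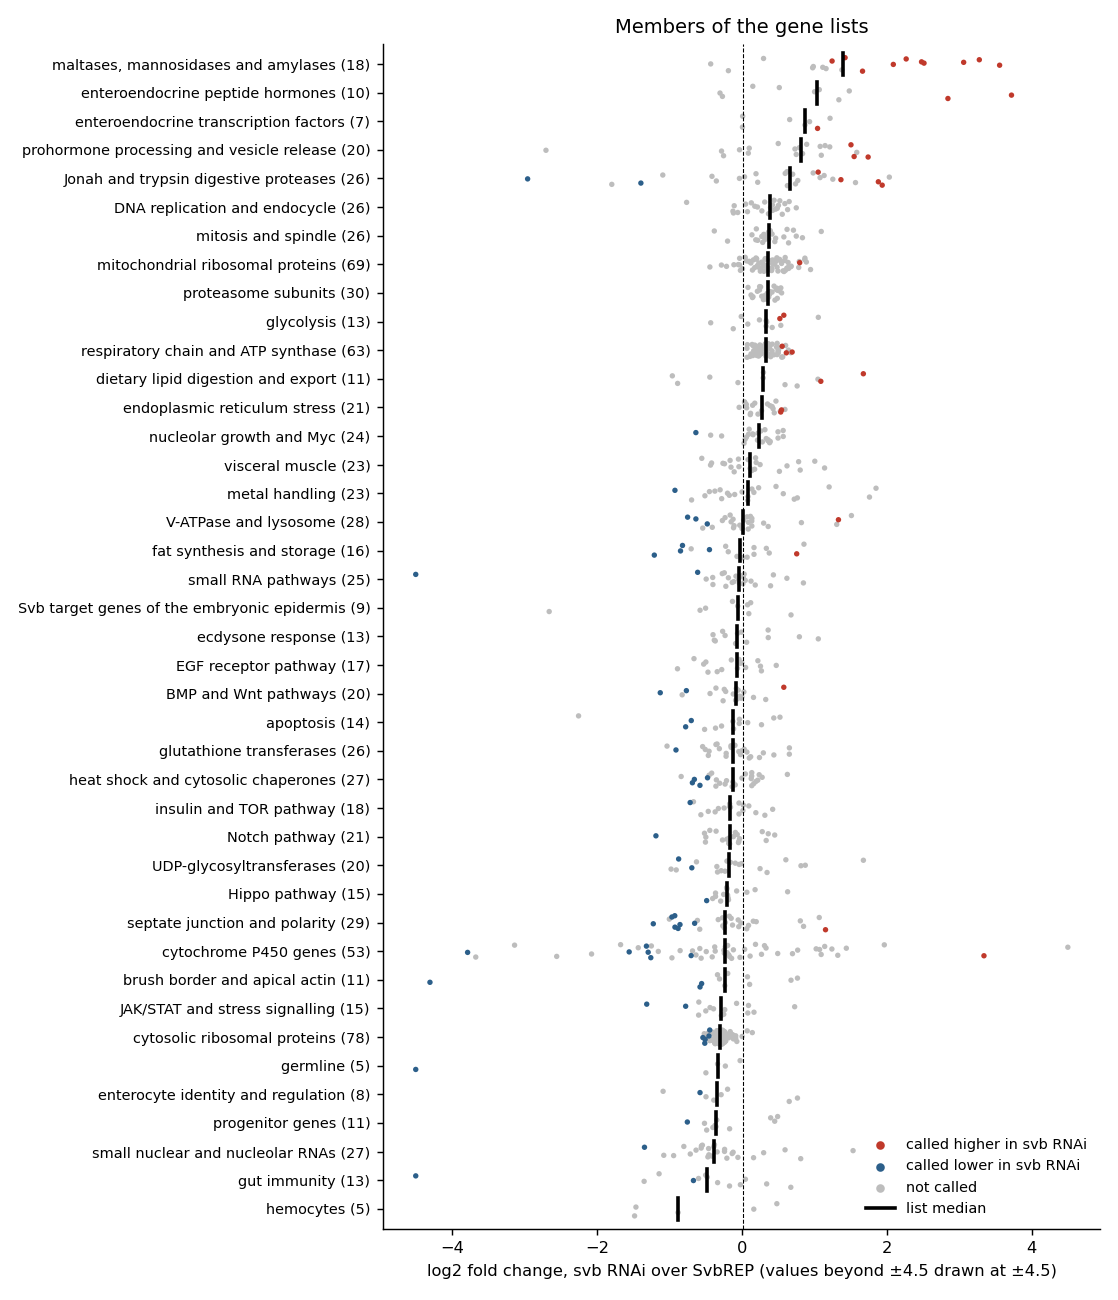
Each row is a gene list with the number of genes tested in brackets; points are its members' log2 fold changes of svb RNAi over SvbREP, red called higher, blue called lower and grey not called, black bars are list medians and the dashed line is the median of all genes, 0.01. Carbohydrate enzymes and enteroendocrine lists lie furthest right (medians 1.40 and 1.04), and cytosolic ribosomal proteins form a tight cluster left of the line (median -0.30).

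The classic Svb targets of the embryonic epidermis gave no call. Of 27 such genes 15 were in the table and 9 were tested, with a median of -0.06. The actin bundler forked (f) had 3.99, 2.61 and 14.5 CPM in the RNAi-labelled libraries, against 3.47, 5.72 and 9.04 CPM in SvbREP, and mwh, which orients cell hairs, had 13.3, 17.1 and 21.4 CPM in the RNAi-labelled libraries, against 23.2, 10.9 and 11.5 CPM in SvbREP. The arms overlapped for each of the 9. Among 25 small RNA pathway genes, blanks and del, a piRNA cluster factor (-0.61), fell, the second not without the replicate block (adjusted p 0.176; 0.0269 to 0.232 over all alternatives). Among 306 long noncoding and antisense RNAs, asRNA:CR45600 rose and 7 fell. The small RNA list had 8% called and the long noncoding list 2.61%, against 5.67% of all genes. Of 27 small nuclear and nucleolar RNAs (3.70% called), snRNA:U11 fell (-1.34). It had 73, 63 and 563 CPM in the RNAi-labelled libraries, against 126, 402 and 933 CPM in SvbREP. The arms overlapped, and the call was lost without the replicate block (adjusted p 0.616; 0.0217 to 0.85 over all alternatives). No gene of the visceral muscle, hemocyte, fat body, tracheal and copper cell lists was called, and in the germline list ovo was the 1 called.

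The genes called lower had a greater exon length than the rest. Exon length here counts all annotated exon bases of a gene, merged over its transcripts. Among 7752 protein-coding genes, the median exon length was 2036 bases for the higher calls, 3529 for the lower calls and 2203 for all. Lower calls were also more abundant, with a median of 117.8 CPM, beside 29.1 CPM for all. When genes were placed in 5 equal bins by exon length, the share called lower climbed from the shortest to the longest bin as 1.61%, 2.52%, 3.10%, 5.03% and 8.77%, while the share called higher stayed between 1.42% and 1.94%. The median level climbed over the same bins as 11.6, 18, 27, 53.4 and 123.5 CPM. The median log2 fold change was 0.13 in the shortest bin and -0.10 in the longest (0.27 and 0.04 with library totals). This gradient was present in pair 1 and pair 3 and close to absent in pair 2, where the Spearman correlation across genes of the log2 difference with exon length was -0.01, beside -0.16 in pair 1 and -0.20 in pair 3. In the longest bin the median log2 level of the RNAi-labelled libraries lay 0.05 to 0.07 below the mean of the 6 libraries, while SvbREP replicates 1 and 3 lay 0.12 above it and SvbREP replicate 2 lay 0.07 below it. The part of exon length or level in the lower calls was not tested.

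**Figure D5:**
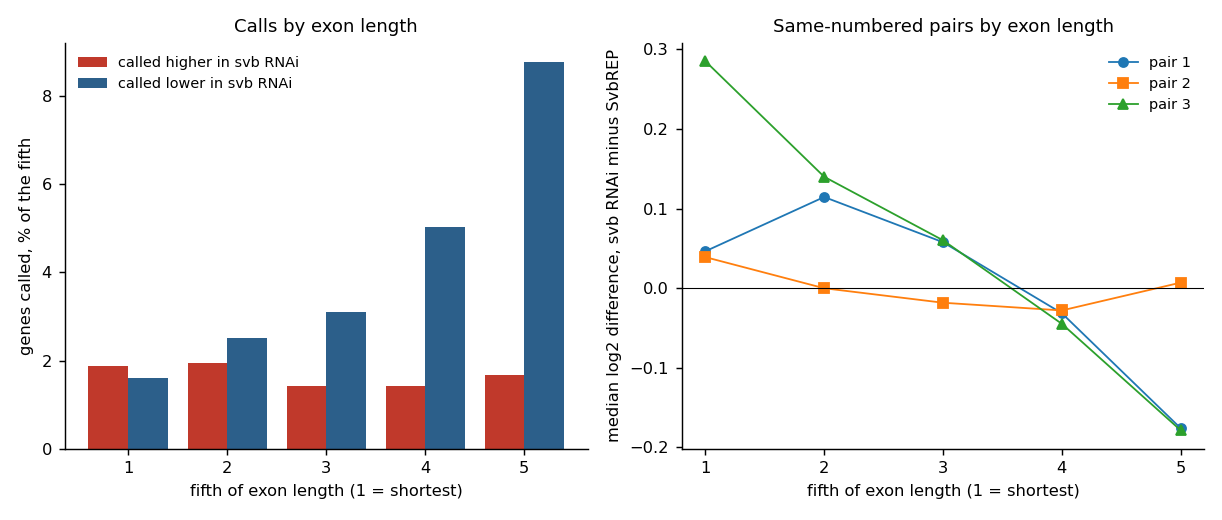
Protein-coding genes in 5 equal bins of exon length, shortest on the left; bars give the share called higher (red) or lower (blue) in svb RNAi, and lines give the median log2 difference of svb RNAi minus SvbREP in each same-numbered pair. Blue bars climb from 1.61% to 8.77%, and the lines of pairs 1 and 3 slope down while that of pair 2 stays near 0.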

How the data were processed

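RNA-seq libraries of 12 sorted cell samples were analysed, and 6 of them were compared. Per the submitters' processing notes, the tools were FastQC 0.11.5, STAR 2.5.2b, HTSeq 0.6.0 and edgeR, on dm6; the strand setting and annotation are not given in the sources used here. The authors deposited whole-number counts per gene for 8802 genes. Of the identifiers, 8686 matched the Ensembl BDGP6.54 annotation, which gave coordinates and exon overlaps (2773 genes share exon positions with another). A second header naming 12 columns without values was not used.

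Counts were tested with the edgeR 4.0.16 quasi-likelihood test (R 4.3.3), two-sided: TMM scaling, filterByExpr with a minimum count of 10, genotype plus replicate number over all 12 libraries, Benjamini-Hochberg adjustment over 8296 genes, threshold 0.05. Adjusted p-values in the text come from this test. The number comes from the description labels; titles number the svb RNAi libraries differently. Deviations of same-numbered libraries from their group means correlated at 0.361, 0.137 and 0.280, each over 0.1, and other combinations at -0.348 to 0.115. The labels do not say that replicates came from separate cultures of flies, so p-values measure the spread between these samples. Floors of 3 counts cover counting error only. On counts simulated for svb RNAi against SvbREP over 8188 genes, the test recovered 55 of 100 genes changed 2-fold and 93 of 100 changed 4-fold. The changed genes were drawn from those above a minimum level. The simulation held no replicate effect and used the spread fitted with the block, so it was an easier setting than the data. Alternatives used DESeq2 1.42.0 and limma 3.58.1, among others. Genes were named by a rule: ovo; among called genes without overlap and averaging 10 CPM or more, the 12 largest changes, 8 smallest p and 6 highest levels per direction; and per list all called members up to 6, otherwise the 4 smallest p. Further genes named were chosen after their values were seen. Members and lists were chosen with earlier results of these data known.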

Additional observations from a re-analysis of the deposited data

How the results depend on the processing

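Replicate numbers, single libraries and scaling set most of the limits. Without the replicate block 215 genes were called (40 higher, 175 lower), and in the 6 libraries alone 302 with the block (105 higher, 197 lower) and 109 without it (25 higher, 84 lower). A block from the title numbers gave 201 calls (35 higher, 166 lower). Leaving out a single library gave 192 to 573 calls, 46 to 169 higher and 139 to 404 lower. Library totals gave 470 calls, 352 of them shared with TMM, as 249 higher and 221 lower (27.9% of calls were higher with TMM), and DESeq2 called 687 genes, 222 of them higher. RLE size factors, limma-voom, no filter and a minimum mean of 10 CPM gave 461, 540, 458 and 435 calls. No value of the 108 rule-named genes changed sign under any of these alternatives; 60 of them lost their call without the replicate block and 27 with library totals. Of 716 list medians, 57 moved by more than the spread between pairs. The cause of these moves was not tested. At 3 libraries a group and totals from 3209182 counts, transcripts near 1 CPM rest on a few reads, and the genes called with changes under 2-fold (30 higher and 195 lower) had median levels of 108.9 and 213 CPM.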

Other observations

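Some genes outside the naming rule, chosen after their values were seen, described more of the lower side. Dscam1, an immunoglobulin receptor, had 1260, 1148 and 1303 CPM in the RNAi-labelled libraries, against 2041, 2292 and 2815 CPM in SvbREP (log2 fold change -0.94, adjusted p 0.00355). The teneurin Ten-m had 187, 141 and 194 CPM in the RNAi-labelled libraries, against 414, 428 and 548 CPM in SvbREP (log2 fold change -1.43, adjusted p 0.00222). DIP-alpha had 54.7, 39.6 and 64.9 CPM in the RNAi-labelled libraries, against 278, 181 and 179 CPM in SvbREP (adjusted p 7.13e-05). In control DIP-alpha averaged 41.2 ± 3.1 CPM, near the RNAi-labelled level (SD, n = 3). Dscam1 averaged 2510 ± 213 CPM and Ten-m 575 ± 49.1 CPM in control, nearer to SvbREP (SD, n = 3 each). Neurotactin (Nrt, -1.23) and the septate junction genes Mcr and vari (-2.31) were also lower than in SvbREP. These 6 genes were called whichever single library was left out. Tep2, a secreted thioester protein, had 188, 181 and 218 CPM in the RNAi-labelled libraries, against 474, 437 and 638 CPM in SvbREP (log2 fold change -1.39, adjusted p 4.3e-05).

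Neighbouring juvenile hormone epoxide hydrolase genes on 2R went in opposite directions. Jheh1 had 27.6, 21.8 and 26.5 CPM in the RNAi-labelled libraries, against 47.6, 64.4 and 71.7 CPM in SvbREP (log2 fold change -1.27, adjusted p 0.00183). Jheh2 had 145, 107 and 119 CPM in the RNAi-labelled libraries, against 272, 360 and 358 CPM in SvbREP (log2 fold change -1.42, adjusted p 0.000317). Jheh3, the next gene, had 37.4, 27.9 and 26.5 CPM in the RNAi-labelled libraries, against 12.3, 15.9 and 19 CPM in SvbREP (log2 fold change 0.98, adjusted p 0.039). The falls of Jheh1 and Jheh2 were called in every single-library omission, and the rise of Jheh3 in none. Among chitin genes, the gut chitin synthase Chs2 had 11.4, 5.22 and 13.1 CPM in the RNAi-labelled libraries, against 127, 22.7 and 61.1 CPM in SvbREP, and the chitin deacetylase Cda5 had 22.6, 22.3 and 20.2 CPM in the RNAi-labelled libraries, against 4.93, 3.69 and 6.86 CPM in SvbREP. Whether these changes depend on Svb or on the transgenic stock cannot be told apart.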
